A study of Mus musculus with 29 samples.

Results

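De novo fatty acid synthesis builds fatty acids from citrate. ATP citrate lyase (Acly) makes cytosolic acetyl-CoA, the acetyl-CoA carboxylases (Acaca and Acacb) turn it into malonyl-CoA, and fatty acid synthase (Fasn) assembles palmitate with NADPH, which malic enzyme (Me1) helps to supply. Elovl6 lengthens palmitate and Scd1 introduces a double bond, while Srebf1 (SREBP-1) and Mlxipl (ChREBP) are the transcription factors that answer to insulin and to carbohydrate, and Thrsp (Spot14) is a lipogenic protein under the same control. Brown adipose tissue (BAT) is known for a high capacity for this pathway, whereas skeletal muscle (SkM) has little of it and uses malonyl-CoA, largely from Acacb at the mitochondrion, to restrain fatty acid oxidation.

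These 10 genes (Fasn, Acaca, Acacb, Acly, Scd1, Elovl6, Me1, Srebf1, Mlxipl and Thrsp) were chosen by name from the 24770 gene symbols of an RNA-seq table, and all 10 passed the filter on low counts in every comparison. The mice were male, wild-type C57BL/6J adults. The control group was sedentary with free access to food, the CR group (calorie restriction) had its food reduced in weekly steps, the EX group (exercise) ran on a treadmill at low intensity for weeks, and the CREX group had both treatments. All mice were fasted for some hours before harvest, a day after the last run, so each level is that of a fasted animal. For BAT the control group had 3 libraries and the CR, EX and CREX groups 4 each, and for SkM, taken from the gastrocnemius, the control and EX groups had 4 and the CR and CREX groups 3 each, with 1 library per mouse and tissue and 29 in all.

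BAT libraries held 21044234 to 24914615 counts each, and SkM libraries 23049091 to 23422789. Values are given as CPM, counts scaled to library size with TMM factors within a tissue, and a count of 3 stood at 0.118 to 0.142 CPM for BAT libraries and 0.115 to 0.140 CPM for SkM libraries, which covers counting error only. Genes were called differentially expressed (DEGs) in edgeR's quasi-likelihood test where they differed by over 1.5-fold with an adjusted p below 0.05. In bulk tissue, a change in the share of a cell type and a change in RNA per cell cannot be told apart.

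The start regions of 3 genes are shown as examples. Fasn and Acly were upregulated by CR in both tissues, as were Acaca, Elovl6 and Thrsp, while Mlxipl was lower in SkM. Each run is the 250 bases before a RefSeq transcript start on the gene's own strand (GRCm38.p6), and capitals mark matches on either strand to the CCAAT box (CCAAT or ATTGG), the GC box (GGGCGG or CCGCCC), the E-box (CACGTG) and a sterol regulatory element (TCACNCCAC or GTGGNGTGA). Overlapping matches were each counted. None of the 4 windows shown overlaps an annotated exon.

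Fasn, chr11:120824548-120824797, minus strand: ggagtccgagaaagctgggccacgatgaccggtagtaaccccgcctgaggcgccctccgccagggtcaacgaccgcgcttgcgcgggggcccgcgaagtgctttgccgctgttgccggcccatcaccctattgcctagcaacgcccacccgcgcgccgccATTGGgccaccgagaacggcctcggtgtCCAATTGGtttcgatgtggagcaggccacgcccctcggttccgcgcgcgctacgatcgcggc
Acly, chr11:100528001-100528250, minus strand: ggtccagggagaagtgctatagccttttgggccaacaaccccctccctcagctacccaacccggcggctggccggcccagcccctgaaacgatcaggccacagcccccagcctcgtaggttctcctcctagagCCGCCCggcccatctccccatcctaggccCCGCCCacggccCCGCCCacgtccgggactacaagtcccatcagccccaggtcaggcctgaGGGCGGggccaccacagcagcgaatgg
Mlxipl, upstream start, chr5:135089640-135089889, plus strand: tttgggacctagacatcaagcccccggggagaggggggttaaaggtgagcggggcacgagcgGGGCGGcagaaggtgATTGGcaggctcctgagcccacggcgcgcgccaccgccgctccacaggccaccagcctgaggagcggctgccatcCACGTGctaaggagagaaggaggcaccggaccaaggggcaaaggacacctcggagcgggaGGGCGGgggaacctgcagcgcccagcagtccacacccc
Mlxipl, downstream start, chr5:135106641-135106890, plus strand: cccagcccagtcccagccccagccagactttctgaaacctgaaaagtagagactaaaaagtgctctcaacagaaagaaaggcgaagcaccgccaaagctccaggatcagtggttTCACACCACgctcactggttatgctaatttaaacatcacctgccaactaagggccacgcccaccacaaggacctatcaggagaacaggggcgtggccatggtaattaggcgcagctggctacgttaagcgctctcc

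The Fasn window held 3 CCAAT matches, of which the last 2 overlap as CCAATTGG, and the Acly window held 4 GC boxes. The upstream Mlxipl window held 1 E-box, 1 CCAAT box and 2 GC boxes, and the downstream window held the sterol element. Among the members upregulated in both tissues but not shown, the Acaca and Elovl6 windows held 0 matches and the Thrsp window 2 CCAAT boxes. Over 32851 windows of the same length, 33.8% held a CCAAT box, 32.7% a GC box, 6.02% the E-box and 1.05% the sterol element. A match describes the sequence and is no evidence of binding. Gene counts did not separate the 2 Mlxipl starts, nor the Srebf1 transcripts. Exons of Elovl6, Me1, Srebf1 and Mlxipl also share bases with a gene on the opposite strand (Gm35986, A330041J22Rik, Rai1 and Gm43500), and since no source used here states that counting used strand, reads of the partners cannot be told apart.

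The pathway stood at very different levels in the resting tissues. In the control group the 10 genes took 3.74 to 4.65% of all counts in BAT and 0.0517 to 0.0721% in SkM. Per kilobase of the main transcript, Scd1 was highest in BAT at 5021 ± 720 CPM per kb (SD, n = 3), followed by Thrsp at 1325 ± 182 and Fasn at 1211 ± 148, which overlapped each other. Acly, Acaca, Me1, Elovl6 and Acacb lay between 230 and 89.4 CPM per kb, in that order, with the range of each overlapping that of the next. Mlxipl at 49.6 ± 1.9 and Srebf1 at 37.9 ± 4.7 CPM per kb were the lowest, and their ranges did not overlap. The order in SkM was another one. Me1 led at 60.0 ± 5.7 CPM per kb (SD, n = 4), then Acacb at 28.9 ± 4.5, Mlxipl at 23.8 ± 1.7 and Srebf1 at 8.14 ± 0.98. Thrsp stood at 5.24 ± 1.31 CPM per kb, Acly at 2.27 ± 0.18, Scd1 at 1.74 ± 0.73 and Acaca at 1.69 ± 0.26. Fasn at 0.857 ± 0.082 and Elovl6 at 0.127 ± 0.038 CPM per kb were the lowest. The ranges of Acacb and Mlxipl overlapped, as did those of Srebf1 and Thrsp, and the range of Scd1 overlapped those of Acly, Acaca and Fasn. These levels were normalized within each tissue, and their difference between tissues was not tested.

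The question for BAT was how CR, with or without EX, altered the pathway. CR upregulated the central enzymes. Fasn, Acaca, Acly, Elovl6, Me1 and Thrsp were all DEGs of the CR group against the control group, a count of 6 of 10, whereas 3.75% of the 13320 genes tested were upregulated DEGs. Me1 and Acly rose most and Srebf1, the transcription factor gene, was the only member that was not higher. The median log2 fold change of the 10 genes was 0.70, beside -0.0018 over all genes tested.

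**Figure D1:**
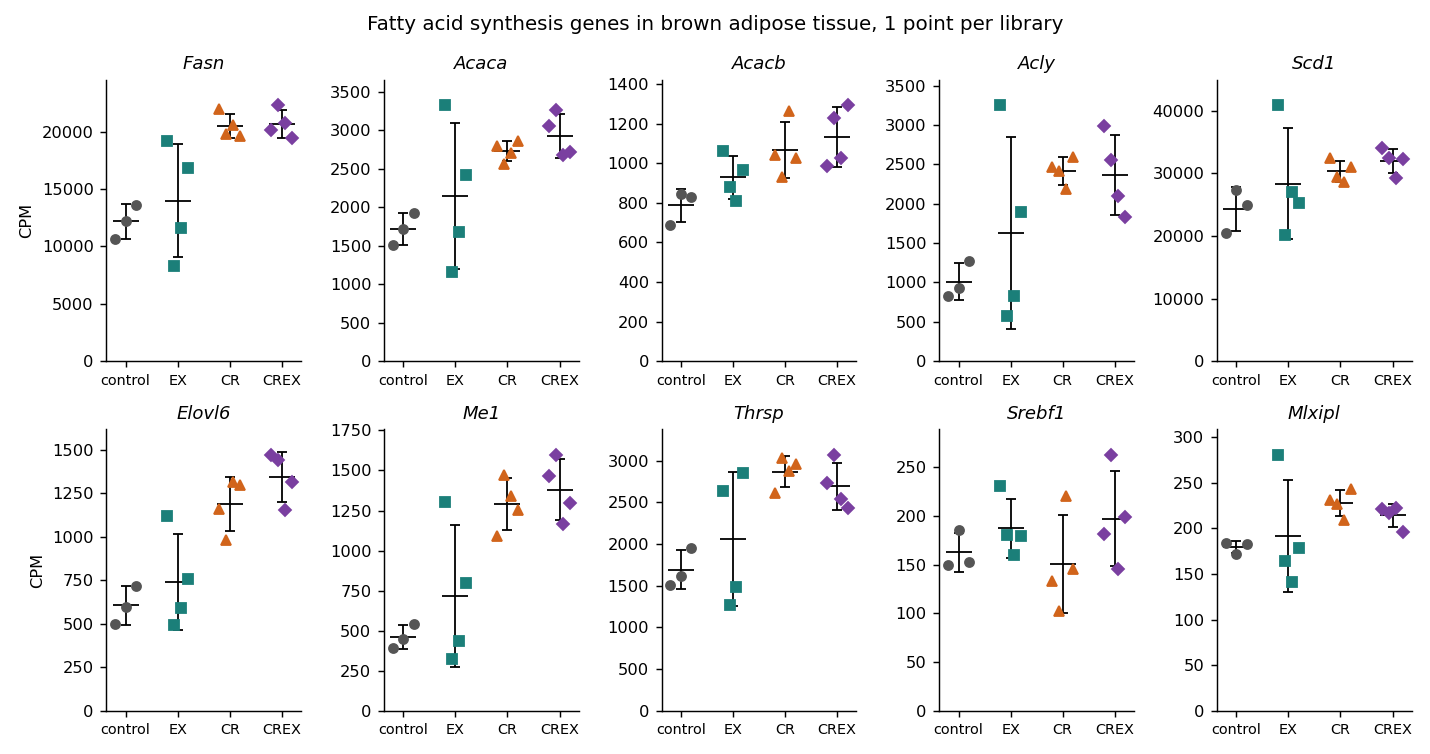
CPM of each gene (vertical axes, linear and starting at 0) in each BAT library by group, with bars for the mean and SD. The CR and CREX libraries cluster above the control libraries for Fasn, Acaca, Acly, Elovl6, Me1 and Thrsp. For these genes the 4 EX libraries spread widely, from below the lowest control library into or above the CR range. Fasn is the exception, as all its EX libraries lie below the CR range.

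Fasn, the enzyme that makes palmitate, stood at 21965, 19815, 20617 and 19633 CPM in the CR libraries and at 10657, 12218 and 13635 CPM in the control libraries. Every CR library was above every control library, with a log2 fold change of 0.75 (SE 0.086, edgeR adjusted p = 0.000403). Acly, which makes the acetyl-CoA that Fasn uses, had 2464, 2416, 2182 and 2598 CPM in CR mice and 825, 928 and 1275 CPM in controls. The groups did not overlap and the log2 fold change was 1.25 (SE 0.143, edgeR adjusted p = 0.000838). Me1, a cytosolic source of NADPH, had 1089, 1472, 1342 and 1250 CPM in CR mice and 389, 450 and 539 CPM in controls. It showed the largest change of the members in this comparison, with a log2 fold change of 1.48 (SE 0.134, edgeR adjusted p = 0.000241), a 2.79-fold difference.

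Acaca, the cytosolic carboxylase, had 2799, 2561, 2704 and 2860 CPM in CR mice and 1509, 1719 and 1927 CPM in controls. Its log2 fold change was 0.66 (SE 0.084, edgeR adjusted p = 0.000686). Elovl6, the palmitate elongase, had 1157, 980, 1315 and 1298 CPM against 501, 595 and 720 CPM, a log2 fold change of 0.97 (SE 0.140, edgeR adjusted p = 0.00239). Thrsp had 2606, 3031, 2876 and 2954 CPM against 1503, 1620 and 1952 CPM, with a log2 fold change of 0.76 (SE 0.094, edgeR adjusted p = 0.000619). None of these ranges overlapped.

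A further 3 genes passed the adjusted p without reaching the fold change minimum, so that 9 of 10 were significantly higher on the adjusted p alone, beside 9.52% of all genes tested. Acacb, the mitochondrial carboxylase, averaged 1065 ± 142 CPM in CR (SD, n = 4) and 786 ± 85.4 CPM in control mice (SD, n = 3), a log2 fold change of 0.43 (by edgeR, adjusted p = 0.0212). Scd1, the most abundant of the 10, averaged 30331 ± 1707 and 24261 ± 3478 CPM, a log2 fold change of 0.32 (by edgeR, adjusted p = 0.0384). Mlxipl averaged 227 ± 14.4 and 180 ± 6.74 CPM, a log2 fold change of 0.33 (by edgeR, adjusted p = 0.0077). The ranges of all 3 were separate between groups. Srebf1 was the exception, with 133, 103, 221 and 146 CPM in CR mice on both sides of 150, 186 and 153 CPM in controls. Its log2 fold change of -0.12 had a 95% interval from -0.75 to 0.51 (edgeR adjusted p = 0.781).

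Cell type markers moved with the CR group as well. The part of muscle fibres, hepatocytes and adipocytes in these results was examined only through the covariate fits given here. That of brown adipocyte markers, endothelial cells and macrophages was not tested. Of 10 brown adipocyte markers 3 were downregulated DEGs and 0 were upregulated, with sums of 4054 to 4853 CPM in CR and 6277 to 7319 CPM in control mice, and Ucp1, the uncoupling protein of thermogenesis, stood at 1871 to 2583 CPM in CR and 3842 to 4750 CPM in control mice. The sum of 10 general adipocyte markers was 14602 to 15537 CPM in CR and 13186 to 14445 CPM in control mice. Of these markers 4 were higher and 6 lower in CR, with a median log2 fold change of -0.04. Among them 1 was a downregulated DEG and 0 were upregulated. Traces of muscle fibre RNA differed widely within groups, from 21.5 to 1593 CPM in CR and from 3.34 to 740 CPM in control libraries for the sum of 10 markers. Sums of 8 markers each were lower in CR without overlap for endothelial cells (265 to 342 against 387 to 421 CPM), macrophages (38.2 to 58.9 against 65.0 to 69.9 CPM) and hepatocytes (237 to 343 against 374 to 446 CPM). These lists held 1, 2 and 1 downregulated DEGs, beside 6.91% of all genes tested, and 1 hepatocyte marker was an upregulated DEG. The hepatocyte sum went against most of its list. Of 5 hepatocyte markers tested 4 were higher in CR, with a median log2 fold change of 0.94. With the muscle fibre markers as a covariate the count of member DEGs was again 6, and it was 6 with the hepatocyte markers. With Adipoq, Plin1, Cidec and Cfd it was 7, where Acacb was added at 0.68 (edgeR adjusted p = 0.00601). Plin1 was itself lower in CR without overlap (271 to 397 against 499 to 536 CPM), so that covariate partly follows CR. In 1 fit on all BAT groups the count of member DEGs was 4, and in the fits that left out 1 library it was 5 or 6. There Acaca fell just short without control replicate 1 (log2 fold change 0.58, edgeR adjusted p = 0.00254).

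The other genes of the pathway were less uniform. Their counts are to be read beside 3.75% of all genes tested upregulated and 6.91% downregulated. Among 10 genes of citrate and acetyl-CoA supply, 2 were upregulated and 1 downregulated, among them the mitochondrial citrate carrier Slc25a1 with a log2 fold change of 1.01 (by edgeR, adjusted p = 0.000885). The others, named after their values were seen, were the acetyl-CoA synthetase Acss2 at 1.09 and the monocarboxylate transporter Slc16a1 at -1.34. Of 10 genes of NADPH supply 3 were upregulated, namely G6pdx (0.72), Pgd (0.76) and H6pd (0.67), which belong to the pentose phosphate steps of the cytosol and the endoplasmic reticulum. Of 12 tested genes of desaturation and elongation 3 were upregulated, namely the desaturase gene Fads1 (1.25), Fads3 (0.75) and the enoyl reductase Tecr (0.60). Of 22 regulators 2 were upregulated, namely Insig1 (0.81), a retention protein for SREBP, and Mid1ip1 (0.81), the paralog of Thrsp, while Akt2 had a log2 fold change of -0.54 that missed the fold minimum. Mitochondrial fatty acid synthesis, a separate pathway that makes lipoic acid precursors, had 0 DEGs of 9 tested, with Lias at 0.27 passing the adjusted p alone (edgeR adjusted p = 0.011).

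EX alone gave no DEG among the members, and its libraries differed widely from each other. Acly had 3249, 572, 821 and 1889 CPM in EX replicates 1 to 4, a 5.68-fold range, beside a 1.19-fold range in the CR group. Fasn had 19173, 8276, 11625 and 16842 CPM and Me1 had 1303, 321, 437 and 800 CPM in the same libraries. EX replicates 1 and 4 reached or approached CR levels of these 3 genes, while EX replicates 2 and 3 were at or below the control mean. Against controls, 0 of 10 members and 0% of 13427 genes were DEGs, with 1 member (Acacb) and 969 genes at an unadjusted p under 0.05, and DESeq2 also called 0 members. The estimates were wide, for example 0.21 for Fasn with a 95% interval from -0.49 to 0.91, and 0.70 for Acly with an interval from -0.97 to 2.38, which includes the size of the CR effect.

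**Figure D2:**
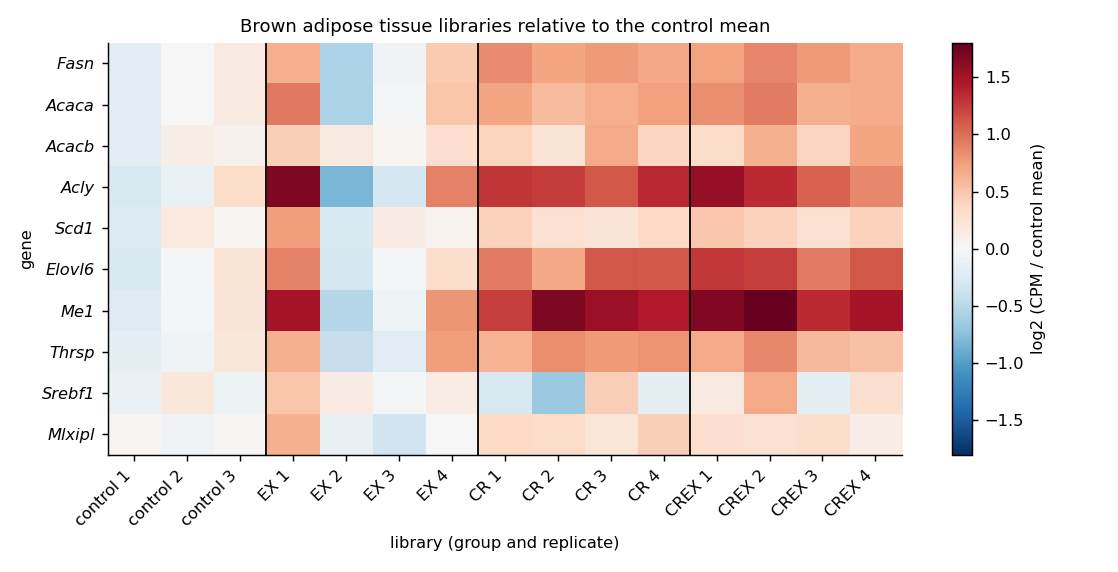
Log2 ratio of CPM to the control mean (colour scale) for each gene (rows) in each BAT library (columns, ordered by group). EX replicates 1 and 4 are above the control mean for Acly, Me1, Fasn and Thrsp and EX replicate 2 is below it, with Acly from -0.82 to 1.69, whereas all CR and CREX columns are above it for these 4 genes.

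The members varied together across BAT. Over 15 libraries, log2 CPM of Fasn, Acaca, Acly, Elovl6, Me1 and Thrsp had pairwise Pearson correlations from 0.88 to 0.98 (15 pairs), which include the difference between groups. Srebf1 had correlations of 0.031 to 0.49 with the other 9 genes. Pearson correlations of the members with Ucp1 ran from -0.76 for Elovl6 to 0.25 for Srebf1, with -0.73 for Fasn. By the same measure over 13918 genes, the non-members most like Fasn were Ttc25 (r = 0.97), the citrate carrier Slc25a1 (0.96), the lactate dehydrogenase subunit Ldha (0.96), Fam57b (0.96) and Acp1 (0.96). The points share libraries and depth, so these values are a description.

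When EX mice were the reference, all 10 members were higher in CREX than in EX mice, with log2 fold changes from 0.067 for Srebf1 to 0.95 for Me1 and a median of 0.41, but 0 were DEGs, beside 1.86% of 13247 genes. DESeq2 called 1 member. An unadjusted p under 0.05 was met by 3 members and by 3388 of the 13247 genes. Elovl6 had 1469, 1439, 1156 and 1314 CPM in CREX mice and 1120, 493, 589 and 756 CPM in EX mice, which did not overlap, and its log2 fold change was 0.86 (SE 0.239, edgeR adjusted p = 0.0683). Without EX replicate 1, Elovl6 became a DEG at 1.14 (edgeR adjusted p = 0.00634). Fasn had 20121, 22295, 20716 and 19423 CPM in CREX mice, above all EX libraries, with a log2 fold change of 0.56 (SE 0.235, edgeR adjusted p = 0.185). Acly had 2984, 2553, 2097 and 1836 CPM in CREX mice and overlapped the EX range, at 0.53 (SE 0.554, edgeR adjusted p = 0.602). A few related genes did pass the test here. Of 12 tested genes of desaturation and elongation 2 were upregulated, Fads1 at 1.18 (edgeR adjusted p = 0.000329) and Fads3 at 0.89. Of 10 genes of acetyl-CoA supply 1 was, the pyruvate carboxylase gene Pcx at 0.62. Among 10 genes of NADPH supply, 22 regulators and 9 genes of mitochondrial fatty acid synthesis 0 were DEGs.

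Adding EX to CR left the levels close together. Between CREX and CR mice 0 members were DEGs (0 with DESeq2 and 0 at an unadjusted p under 0.05), beside 0.00763% of 13109 genes. For Fasn the log2 difference was 0.011 with a 95% interval from -0.12 to 0.14, and for Acly -0.027 from -0.33 to 0.28. These intervals are narrower than the CR effect on either gene, whereas Srebf1 at 0.39 had an interval from -0.23 to 1.01.

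In the fit over all 4 BAT groups, the main effect of CR gave 4 upregulated DEGs, Me1 (1.22), Elovl6 (0.91), Acly (0.90) and Fasn (0.66), beside 3.96% of 13918 genes. Acaca at 0.56, Acacb at 0.36 and Thrsp at 0.57 passed the adjusted p below the fold minimum. The Acly call stood at an edgeR adjusted p of 0.04996 and was lost in 13 of the 15 fits that left out 1 library and with the 4-gene adipocyte covariate (edgeR adjusted p = 0.0532). With muscle fibre or hepatocyte markers as a covariate 6 members were called, Acaca and Thrsp being added. The main effect of EX gave 0 member DEGs (beside 0.00718%) and so did the interaction of CR and EX (beside 0%), with 0 members at an unadjusted p under 0.05 and 0 called by DESeq2 in both. The interaction for Fasn was -0.19 with a 95% interval from -0.80 to 0.41. The comparisons of CR with control and of CREX with EX share no libraries, whereas the comparison of EX with control shares the control libraries of the former and the EX libraries of the latter.

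In SkM the same question gave larger fold changes for Fasn, Scd1, Elovl6, Thrsp and Acaca, from far lower levels. Of these, only Fasn and Scd1 differed between tissues in the joint fit given below. CR against control gave 6 upregulated DEGs, Fasn, Acaca, Acly, Scd1, Elovl6 and Thrsp, beside 4.27% of 13170 genes tested, and the median log2 fold change of the 10 genes was 1.07, beside 0.005 over all genes. Scd1 and Fasn rose most, Me1, Acacb and Srebf1 did not pass the test, and Mlxipl was lower.

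**Figure D3:**
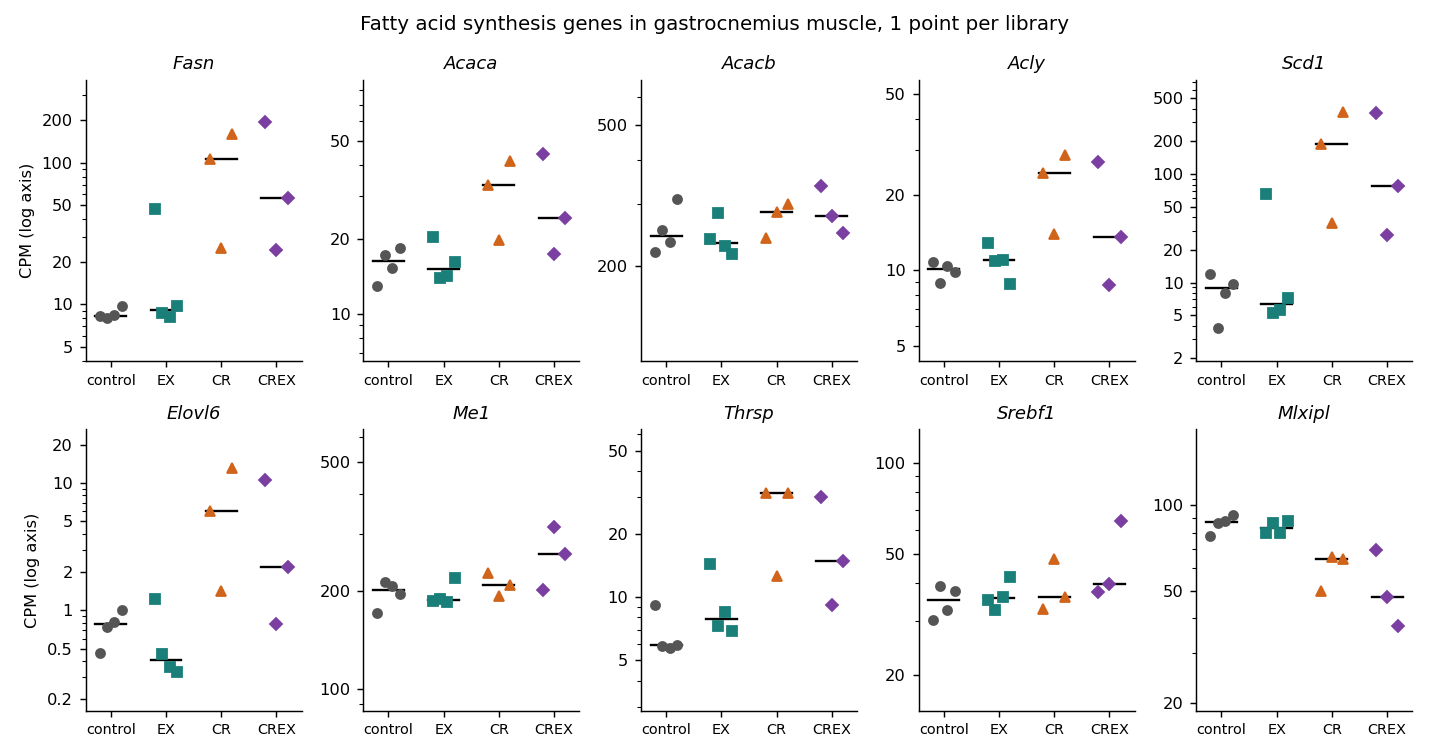
CPM of each gene (vertical axes, log scale) in each SkM library by group, with a line at the median. CR replicates 1 and 3 and CREX replicate 1 are the highest libraries for Fasn, Scd1 and Elovl6, EX replicate 1 stands apart from the other EX libraries, and Mlxipl is lower in the CR and CREX groups.

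Adipocyte markers stood high in some SkM libraries, and the same libraries had the highest levels of several members. Adipoq, the adipocyte hormone adiponectin, stood at 9.92, 0.87 and 13.4 CPM in the CR libraries, at 1.75, 0.00, 0.45 and 0.96 CPM in the control, at 12.8, 0.23, 0.27 and 0.14 CPM in the EX and at 14.8, 0.90 and 3.41 CPM in the CREX libraries. Cfd, the adipocyte factor adipsin, was at 61.9 and 72.0 CPM in CR replicates 1 and 3 and at most 10.3 CPM in controls. Of 10 adipocyte markers 8 were tested, 7 were higher in CR and 0 were DEGs. Their sum was 517 to 865 CPM in CR and 546 to 700 CPM in control libraries, and Adipoq, Cidec and Plin1 were at 0 in control replicate 2. Hepatocyte markers moved with the CR group, with sums over all 8 of 43.3 to 237 CPM in CR and 1.37 to 6.70 CPM in control libraries, and Alb (albumin) at 27.9, 153 and 144 CPM in CR mice, so that CR replicate 2 was high in Alb and low in Adipoq. Endothelial markers were lower in CR (sums of 176 to 220 against 269 to 339 CPM) and muscle fibre markers were higher (147700 to 197666 against 122486 to 134377 CPM), each without overlap. The sum of the brown adipocyte list was also lower without overlap (134 to 157 against 191 to 262 CPM). Ucp1 in that list had 0 counts in the CR libraries and at most 3 in a control library. That sum thus rests on the other markers of the list. The part of adipocytes and hepatocytes in the member results was examined only through the fits given below, and that of the other cell types was not tested.

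Fasn had 106, 24.9 and 160 CPM in the CR libraries and 8.33, 7.96, 8.37 and 9.82 CPM in the control libraries. CR replicate 2, with Adipoq in the control range, was the lowest of its group and still above every control. The log2 fold change was 3.50 (SE 0.546, edgeR adjusted p = 0.00649). Scd1 had 188, 35.5 and 371 CPM in CR mice and 12.1, 3.77, 7.96 and 9.77 CPM in controls, again without overlap, with a log2 fold change of 4.56 (SE 0.763, edgeR adjusted p = 0.0087). Elovl6 had 5.97, 1.42 and 13.1 CPM against 0.46, 0.74, 0.81 and 0.998 CPM, a log2 fold change of 3.17 (SE 0.644, edgeR adjusted p = 0.0124).

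Thrsp had 31.5, 12.6 and 31.4 CPM in CR mice and 9.20, 5.86, 5.75 and 5.95 CPM in controls, a log2 fold change of 1.92 (SE 0.311, edgeR adjusted p = 0.00425). Acly had 24.3, 14.0 and 28.6 CPM against 8.94 to 10.8 CPM, a log2 fold change of 1.16 (SE 0.208, edgeR adjusted p = 0.0054). Acaca had 33.2, 19.8 and 41.4 CPM against 12.9 to 18.5 CPM, at 0.98 (SE 0.218, edgeR adjusted p = 0.0153). In all 6 genes CR replicate 2 was the lowest CR library.

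These calls changed with the libraries and covariates in the fit. Without CR replicate 1, 2 members remained DEGs, Acly and Thrsp, and Fasn stood at 3.41 with an edgeR adjusted p of 0.0522. The Acaca call was also lost without CR replicate 3 (edgeR adjusted p = 0.0541) and without control replicate 3 (edgeR adjusted p = 0.0532), and Mlxipl became a DEG at -0.59 without CR replicate 2. With the 10 adipocyte markers as a covariate, 3 were called and Fasn stood at 2.20 (edgeR adjusted p = 0.0359), Scd1 2.48 and Thrsp 1.16. With Adipoq, Plin1, Cidec and Cfd as the covariate only Scd1 was called, at 2.31 (edgeR adjusted p = 0.0116), and with the hepatocyte markers none was, with 5.41 for Scd1 (edgeR adjusted p = 0.321). The hepatocyte sums were separate between groups (43.3 to 237 CPM in CR, 1.37 to 6.70 CPM in control libraries). That fit therefore cannot tell the hepatocyte covariate apart from CR. When the 4 libraries above 5 CPM of Adipoq were left out, the CR group was reduced to replicate 2, which was assumed to vary like the other groups, and Fasn alone was called at 1.52 (edgeR adjusted p = 0.0271). The fitted fold changes of the 6 genes stayed positive in all of these fits.

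**Figure D4:**
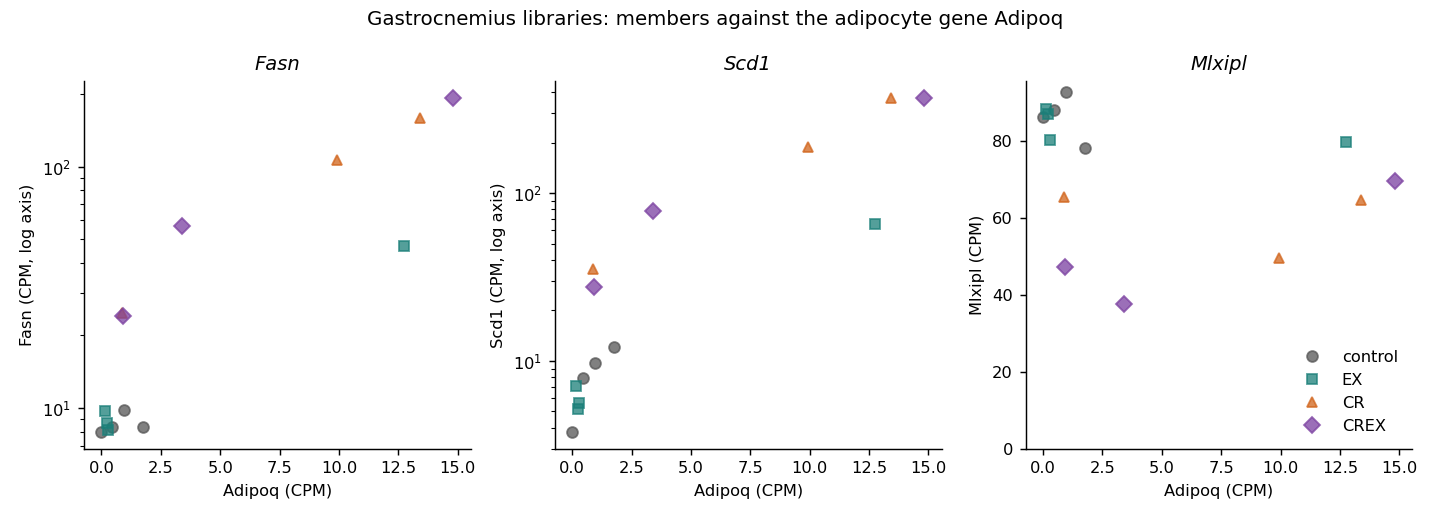
CPM of Fasn and Scd1 (log axes) and of Mlxipl (linear axis) against Adipoq CPM in the 14 SkM libraries, with groups by symbol. At low Adipoq the CR library and 2 CREX libraries lie above all control and EX libraries of similar Adipoq for Fasn and Scd1 and below them for Mlxipl, and EX replicate 1, at 12.8 CPM of Adipoq, lies below the CR and CREX libraries of like Adipoq for Fasn and Scd1.

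Across the 14 SkM libraries the Pearson correlation of log2 CPM with Adipoq was 0.88 for Fasn, 0.93 for Scd1, 0.88 for Thrsp, 0.81 for Acly, 0.81 for Elovl6 and 0.78 for Acaca. It was 0.018 for Me1, -0.029 for Srebf1, 0.32 for Acacb and -0.46 for Mlxipl. The genes most like Fasn among 13607 were Pde3b (r = 0.96), Aldh3b2 (0.95), the transketolase gene Tkt (0.95), Slc25a1 (0.94) and Cyp2f2 (0.94). Groups and libraries are shared by all of these points.

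The members that are abundant in muscle behaved otherwise. Acacb, the carboxylase of the muscle mitochondrion, averaged 275 ± 30.8 CPM in CR (SD, n = 3) and 254 ± 39.8 CPM in control mice (SD, n = 4), a log2 fold change of 0.12 with a 95% interval from -0.20 to 0.43. Me1 averaged 210 ± 17.4 and 197 ± 18.8 CPM, a log2 fold change of 0.10 from -0.17 to 0.37, so that a change of the size seen in BAT lay outside the interval. Srebf1 averaged 38.9 ± 8.09 and 35.0 ± 4.22 CPM, at 0.16 from -0.16 to 0.48. Mlxipl had 49.7, 65.5 and 64.5 CPM in CR mice and 78.1, 86.3, 88.0 and 92.8 CPM in controls. All CR libraries were below all controls, and the log2 fold change was -0.52 (SE 0.121, edgeR adjusted p = 0.0179), short of the fold minimum.

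Of the related lists 4 genes were upregulated DEGs in SkM, to be read beside the 4.27% of all genes tested. Slc25a1 rose by 2.20 on the log2 scale (edgeR adjusted p = 0.0163), the only DEG of 10 genes of acetyl-CoA supply. H6pd at 0.71 was the only one of 10 genes of NADPH supply, and Hsd17b12 (0.81) and Hacd2 (1.0), which act in the elongation cycle, were the DEGs of 12 tested genes of desaturation and elongation. Of 22 regulators and 9 genes of mitochondrial fatty acid synthesis 0 were DEGs in edgeR's test. The smallest adjusted p in these lists were those of Akt1 (0.38, edgeR adjusted p = 0.0592) and Oxsm (-0.39, edgeR adjusted p = 0.046).

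In CREX against EX mice 0 members were upregulated DEGs in SkM (beside 3.7% of 13131 genes) and 1 was downregulated (beside 5.16%), although 9 of 10 were higher and the median log2 fold change was 0.70, beside 0.0026 over all genes. Fasn had 193, 24.1 and 56.7 CPM in CREX mice and 47.1, 8.68, 8.13 and 9.69 CPM in EX mice. EX replicate 1, the library with 12.8 CPM of Adipoq, overlapped the CREX range, and the log2 fold change was 2.31 (SE 1.01, edgeR adjusted p = 0.180). Scd1 had 369, 27.6 and 78.4 CPM against 65.4, 5.20, 5.60 and 7.13 CPM, at 2.92 (SE 1.39, edgeR adjusted p = 0.214). Elovl6 had 10.5, 0.78 and 2.18 CPM against 1.22, 0.45, 0.36 and 0.33 CPM, at 2.91 (SE 0.955, edgeR adjusted p = 0.0884).

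Mlxipl had 69.6, 47.3 and 37.6 CPM in CREX mice and 79.6, 86.9, 80.1 and 88.3 CPM in EX mice. The groups did not overlap and the log2 fold change was -0.70 (SE 0.183, edgeR adjusted p = 0.0365), a DEG that was lost in 6 of the 7 fits without 1 library. DESeq2 called 3 members, Acaca and Elovl6 higher and Mlxipl lower. With the 4 libraries above 5 CPM of Adipoq left out, 4 were called, with Fasn at 2.20 (edgeR adjusted p = 0.000552), Scd1 at 3.16 (edgeR adjusted p = 0.0065), Elovl6 at 1.96 (edgeR adjusted p = 0.00873) and Mlxipl at -1.0 (edgeR adjusted p = 0.000106). That fit used the 10 libraries kept from all SkM groups, without CREX replicate 1 and EX replicate 1, so few libraries of either group remained. With the adipocyte markers as a covariate the same 4 genes were called.

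EX alone and EX added to CR gave 0 member DEGs in SkM, beside 0.0775% of 12905 genes for EX against control and 0% of 13065 genes for CREX against CR, with 0 members at an unadjusted p under 0.05 and 0 with DESeq2 in both. Fasn was 1.09 higher in EX than in control mice with a 95% interval from -0.54 to 2.72, and EX replicate 1 was the only EX library above 10 CPM. Between CREX and CR mice the difference for Fasn was -0.089 with an interval from -2.43 to 2.26, which is too wide to place it.

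Over all 4 SkM groups the main effect of CR gave 6 upregulated DEGs (beside 5.99% of 13607 genes), Scd1 (3.74), Elovl6 (3.03), Fasn (2.90), Thrsp (1.43), Acaca (0.89) and Acly (0.87), and 1 downregulated DEG (beside 8.14%), Mlxipl at -0.62 (SE 0.111, edgeR adjusted p = 0.000769). With the adipocyte covariate 5 members were called, and with the hepatocyte covariate 1. The main effect of EX (beside 0.0294%) and the interaction (beside 0%) gave 0 members, with 0 at an unadjusted p under 0.05 and 0 with DESeq2.

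**Figure D5:**
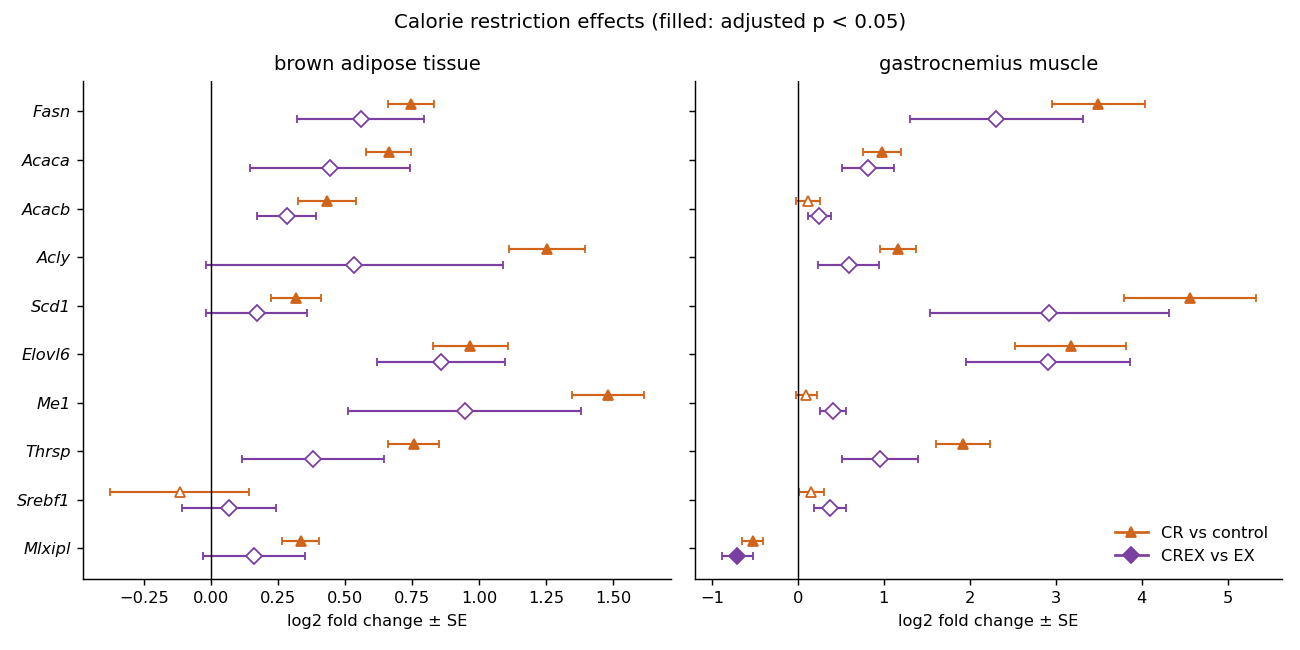
Log2 fold changes with standard errors (horizontal axis) of the 10 genes for CR against control (triangles) and CREX against EX (diamonds) in BAT (left) and SkM (right), on different scales, with filled symbols for adjusted p under 0.05. In BAT all 9 other genes are filled for CR while Srebf1 is open, and in SkM Mlxipl alone lies to the left of 0 and is filled in both comparisons.

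The CR effect was compared between tissues in a joint fit of the control and CR groups of both. For 2 members the effect was larger in SkM (beside 3.65% of 14365 genes), Fasn by 2.74 (SE 0.578, edgeR adjusted p = 0.0155) and Scd1 by 4.23 (SE 0.835, edgeR adjusted p = 0.0134). For 2 it was more positive in BAT (beside 3.94%), Me1 by 1.40 (log2 difference -1.40, SE 0.199, edgeR adjusted p = 0.000819) and Mlxipl (log2 difference -0.87, SE 0.143, edgeR adjusted p = 0.00188), which was higher with CR in BAT and lower in SkM. For Acly the difference was -0.10 with a 95% interval from -0.70 to 0.50. For CREX against EX 0 of 10 members differed between tissues (beside 5.58% of 14414 genes), with 1 called by DESeq2. An unadjusted p under 0.05 was met by 1 member and by 3203 of the 14414 genes.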

How the data were processed

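RNA-seq of BAT (15 libraries) and SkM (14 libraries) with 150 bp paired-end reads was used. Per the methods of the study, the authors removed adapters and poor bases, mapped the reads to mm10 with STAR and ran RSEM. The deposited table gives its expected counts for each gene symbol without normalization, and these were rounded to whole counts. The annotation used for counting and the strand setting are not given in the sources used here. RSEM divides reads that match several genes, so genes with close paralogs such as Scd1 rest on that division. Of 24770 rows, 4 with duplicated symbols were left out.

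Comparisons between groups were fitted with edgeR 4.0.16 (R 4.3.3) on the libraries compared, with TMM, filterByExpr and the robust quasi-likelihood test, Benjamini-Hochberg adjustment over all genes, and thresholds of 0.05 and 1.5-fold (no fold minimum for interactions and tissue differences). Standard errors are the log2 fold change over the square root of F. The 95% intervals use the total degrees of freedom of the test, the residual ones plus those of edgeR's prior. The fits were tested on simulated counts. DESeq2 1.42.0 and other alternatives are given in the closing section. Figures were drawn with matplotlib. Gene positions are from GENCODE (GRCm38) and start regions from RefSeq, where 9 of 10 members matched and Scd1 was not among them.

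The 10 members, the related lists and the marker lists were chosen with earlier results of these data known. Named genes are the members, up to 3 genes with the smallest p of each related list per comparison, the 5 genes most like Fasn in each tissue and abundant markers. Adipoq, Plin1, Cidec, Cfd, Alb, Ucp1, Acss2 and Slc16a1 were named after their values were seen. Groups share replicate numbers, but these are different mice and no source ties the numbers to a litter, batch or day, nor BAT and SkM libraries to the same mouse. P-values measure the spread between mice.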

Additional observations from a re-analysis of the deposited data

Results flagged for a closer look

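In groups of 4 libraries, 5 of 50 combinations of a member and a group held a library far from the other 3 by Dixon's criterion, which chance alone meets in about 1 of 20 groups. SkM EX replicate 1 was the high library for 3 members, with 47.1 CPM of Fasn, 65.4 CPM of Scd1 and 1.22 CPM of Elovl6, and the same library had 12.8 CPM of Adipoq beside 0.14 to 0.27 CPM in the other EX libraries. SkM EX replicate 4 had 219 CPM of Me1 beside 185 to 189 CPM in its group, and SkM control replicate 1 had 9.20 CPM of Thrsp beside 5.75 to 5.95 CPM.

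The CR effect differed between the tissues for 4 members by the test of the difference itself, written as SkM minus BAT on the log2 scale. The differences were 2.74 for Fasn, 4.23 for Scd1, -1.40 for Me1 and -0.87 for Mlxipl. The SkM effects of Fasn and Scd1 come with the higher adipocyte markers of CR replicates 1 and 3 and the higher hepatocyte markers of all 3 CR libraries, whose part was not tested in this fit.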

How the results depend on the processing

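No called member changed direction under any alternative, and 157 of 3184 alternative values of single members changed sign without a call in either fit. For SkM CR against control the 6 member DEGs became 3 with adipocyte markers as a covariate, 1 with Adipoq, Plin1, Cidec and Cfd, 0 with hepatocyte markers and 1 without the 4 libraries above 5 CPM of Adipoq, and 2 to 7 with a library left out. For SkM CREX against EX the 1 DEG, Mlxipl lower, became 3 with DESeq2, 3 with the replicate block, 2 in 1 fit on all groups, 4, 3 and 2 with the adipocyte, 4-gene and hepatocyte covariates, 4 without the high-Adipoq libraries, and 0 to 1 with a library left out. The block called other genes, all higher, namely Fasn at 2.10 (edgeR adjusted p = 0.0242), Scd1 at 2.88 (edgeR adjusted p = 0.0211) and Elovl6 at 2.38 (edgeR adjusted p = 0.0425), and lost Mlxipl (edgeR adjusted p = 0.0705). The 4-gene and hepatocyte covariates and the fits without the high-Adipoq libraries were added after seeing the data. In SkM CR against control the hepatocyte sums were separate between groups, so that covariate cannot be told apart from CR there. Without the high-Adipoq libraries, SkM CREX against CR gave 1, Mlxipl at -0.62. With hepatocyte markers, the SkM main effect of CR gave 1 of 7. For BAT CREX against EX the count of 0 became 1, Elovl6, with DESeq2, in 1 fit on all groups and without EX replicate 1 (range 0 to 1). The tissue difference of CR gave 2, Me1 and Mlxipl, with the replicate block in place of 4, with Fasn at 2.63 (edgeR adjusted p = 0.0701) and Scd1 at 4.22 (edgeR adjusted p = 0.0546), and 4 to 6 with a library left out, where Elovl6 and Thrsp were added without SkM CR replicate 2. For the tissue difference of CREX against EX the 0 became 1 with DESeq2 and 1 with the block, and 0 to 1 with a library left out.

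Same-numbered libraries did not deviate together in every pair of any comparison, and the mean correlation of their deviations ranged from -0.27 to 0.14. Beyond the counts above, the block gave 4 of 6 for SkM CR against control and 3 of 4 for the BAT main effect of CR, and the other counts of called members were the same as without it. Without a fold minimum, BAT CR gave 9 in place of 6, and the main effect of CR in BAT, with 4, gave 3 to 6 with a library left out, 6 with muscle fibre or hepatocyte markers and 3 with the 4-gene covariate. The cause of these changes was not tested. Depth limits the Elovl6 values in SkM, which rest on 8 and 7 counts in EX replicates 3 and 4 and on 10 to 24 counts in the control libraries.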
